A study of Rattus norvegicus with 6 samples.

Results

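The genes described here are 9 genes of myelin and of the oligodendrocyte lineage, namely Mbp, Mobp, Mal, Cldn11, Mag, Mog, Ugt8, Olig1 and Sox10. They were chosen by gene symbol in the array's probe annotation, and all 9 have a probe set, out of 14217 genes measured by a probe set paired with a single gene. Together they have 15 such probe sets (groups of short probes read out as 1 value), 5 genes having 1 and 4 genes having 2 or 3, and for each gene the brightest probe set on average leads the account. Total RNA was taken after 8 days in vitro from 3 CNT cultures, grown on glass coated with multiwalled carbon nanotubes, and from 3 control cultures, grown on glass coated with polyornithine. Both kinds of culture hold dissociated spinal cord cells of rats of postnatal day 1 to 4, which the sample labels call Sprague-Dawley and the study's methods call Wistar, in medium with horse serum and nerve growth factor. The cells were not sorted, so glia and other cells are measured with the neurons, and fewer oligodendrocytes cannot be told apart from less RNA per cell. Each culture was read on an Affymetrix array of its own, and a value is log2 expression, so that a difference of 1 is a 2-fold difference.

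Myelin is the sheath of tightly wrapped membrane that oligodendrocytes lay around axons in the central nervous system and Schwann cells in peripheral nerves. Oligodendrocytes arise from dividing precursors under the control of transcription factors such as Olig2 and Sox10, and on maturing they switch on the genes of myelin proteins and of the enzymes that make myelin lipids. In the spinal cord of the rat this takes place largely in the weeks around birth, the age from which these cultures were made. Myelin genes are therefore read as marks of how many cells have entered this lineage and how far they have matured.

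Sox10 binds DNA through an HMG box that recognises short motifs such as ACAAAG, and its mRNA was measured on the same arrays as the myelin genes. Windows around the annotated starts were found for 6 of the 9 genes, all but Mog, Olig1 and Sox10, and 3 are printed, that of Mobp for its many matches to this motif, that of Mag for a single match and that of Mal because this gene had the highest fold of the 9. They run from 250 bases before to 50 bases after a start in RefSeq's annotation of GRCr8. For Mobp and Mag this start lies inside the gene span given below, which begins at chr8:128747117 and, on the - strand, at chr1:95291133. The windows are printed 5′ to 3′, with ACAAAG or its reverse complement CTTTGT in capitals.
Mobp, chr8:128746982-128747281, + strand: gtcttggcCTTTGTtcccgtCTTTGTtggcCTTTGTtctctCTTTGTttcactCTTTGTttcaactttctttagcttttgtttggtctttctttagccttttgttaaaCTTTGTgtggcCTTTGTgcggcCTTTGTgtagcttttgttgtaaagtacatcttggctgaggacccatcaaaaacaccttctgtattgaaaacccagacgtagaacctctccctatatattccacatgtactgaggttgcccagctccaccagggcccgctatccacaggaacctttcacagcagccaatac
Mag, chr1:95290995-95291294, - strand: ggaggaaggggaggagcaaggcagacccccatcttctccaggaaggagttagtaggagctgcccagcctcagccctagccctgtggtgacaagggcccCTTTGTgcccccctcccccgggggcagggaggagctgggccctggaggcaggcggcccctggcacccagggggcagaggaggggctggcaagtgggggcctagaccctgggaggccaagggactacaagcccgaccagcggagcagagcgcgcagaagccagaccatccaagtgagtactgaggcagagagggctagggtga
Mal, chr3:135341374-135341673, - strand: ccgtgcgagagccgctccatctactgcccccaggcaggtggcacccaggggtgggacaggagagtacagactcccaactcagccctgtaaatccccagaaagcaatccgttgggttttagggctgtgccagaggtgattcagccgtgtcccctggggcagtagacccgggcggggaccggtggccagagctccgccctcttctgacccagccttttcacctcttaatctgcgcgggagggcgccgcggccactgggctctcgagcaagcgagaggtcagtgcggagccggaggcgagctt
The window of Mobp holds this motif 8 times, always as CTTTGT and always before the start on which the window is set. The last of these matches ends on the first base of the gene's span. The window of Mag holds the motif 1 time and that of Mal does not hold it. Mbp has 2 annotated windows, not printed, of which chr18:78130402-78130701 does not hold it and chr18:78209995-78210294 holds it 1 time, and those of Cldn11 and Ugt8 do not hold it. Of 33469 windows of the same length in the table, 18.8% hold it at least 1 time on either strand and 3 windows, that of Mobp included, hold it 8 times or more. The E-box CANNTG, the kind of motif that Olig proteins bind, occurs 1 time in the window of Mobp, 2 times in that of Mag and 1 time in that of Mal, and 72.1% of all windows hold it. No match of either motif overlaps the other in these windows, the motifs were chosen with the sequences in view, and a match is only a match of letters.

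The arrays correlated with each other at 0.969 to 0.994 across genes, which are not independent replicates. As a sign of RNA quality, the control probe set at the 3′ end of beta-actin exceeded that at the 5′ end by 0.92, 2.20 and 1.72 log2 on CNT arrays 1, 2 and 3, and by 2.20, 0.62 and 0.66 on control arrays 1, 2 and 3. This difference was largest on CNT 2, CNT 3 and control 1.

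Whether growth on nanotubes changed the oligodendrocytes of these cultures was asked of each gene by comparing CNT with control cultures. None of the 9 genes passed limma's test at an adjusted p of 0.05, against a background of 0% of all 14217 genes, and the adjusted p of each was 0.999. At an unadjusted p of 0.05, limma took none of the 9 genes and 443 of all genes (3.12%). The rank product, the test that the study's methods name, called none of the 9, against 62 of all genes (0.436%). It was run with a 2-fold cut that none of the 9 reached, so it could not call any of them. Its lowest percentage of false positives among the 9 was 0.16, for Mal, against a threshold of 0.05. In none of the 9 did the CNT arrays lie all above or all below the control arrays, where 7.99% of all genes had such groups. The exact permutation test, two-sided, has a floor of 0.1 for groups of 3, and it gave 0.3 for Mal and 0.6 to 1 for the others. The mean was higher in CNT cultures for 6 of the 9 genes, with a median log2 fold change of 0.04 over the 9 and of 0.03 over all genes.

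**Figure D1:**
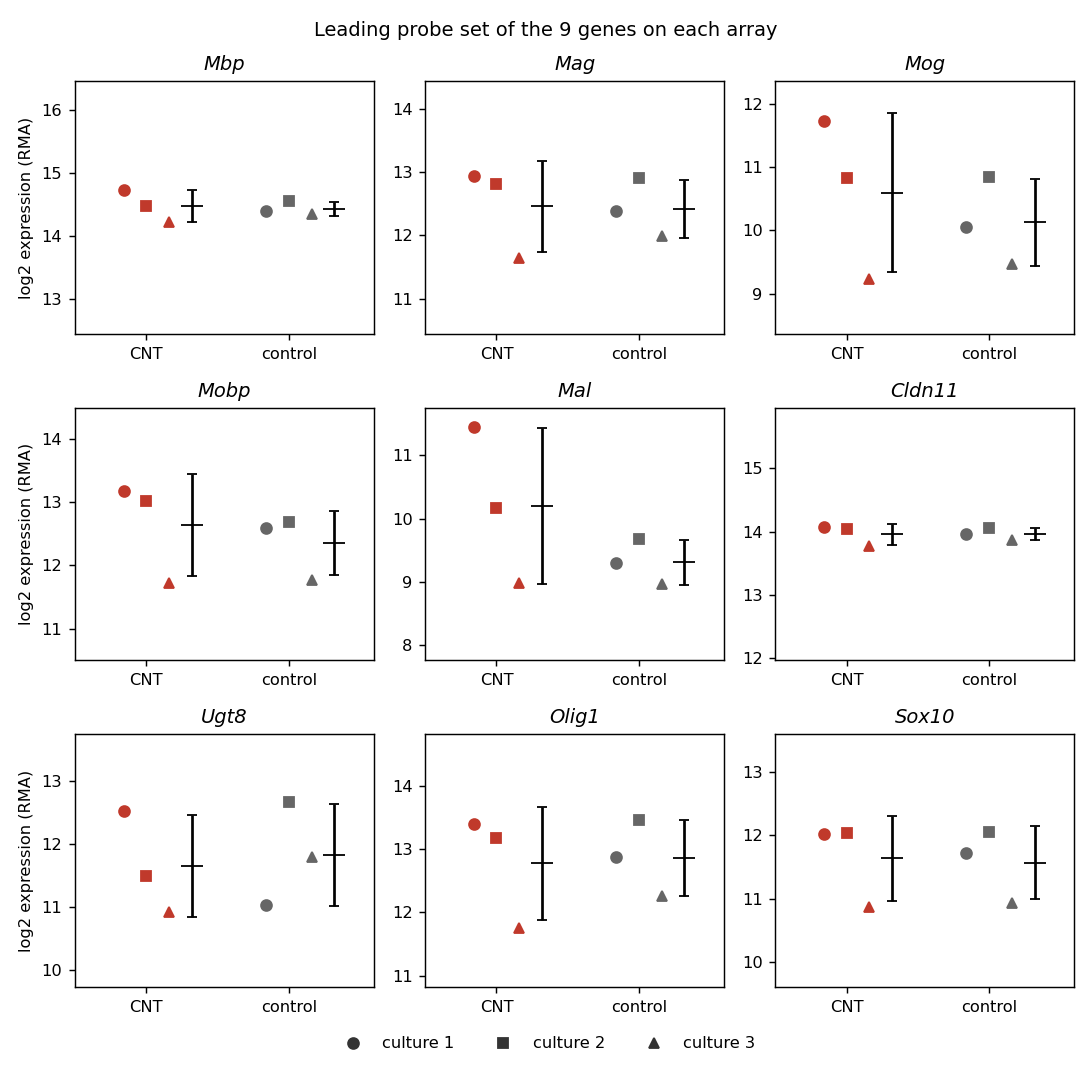
Log2 expression of the leading probe set of the 9 genes on each array, CNT cultures in red and control cultures in grey, with the culture number as symbol and the mean and SD (n = 3) beside the points; each panel spans 4 log2 units. Culture 3 (triangle) is the lowest of its group in both groups for 8 of the 9 genes, all but Ugt8.

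Among the structural proteins of myelin, Mal had the highest fold, and the leading probe sets of Mbp and Cldn11 had folds close to 1, which their other probe sets did not. Mal (chr3:135317664-135341423 in GRCr8) encodes a small membrane proteolipid that takes part in sorting cargo to the myelin membrane. Its log2 expression was 11.45, 10.17 and 8.98 in CNT cultures 1, 2 and 3, against 9.30, 9.67 and 8.96 in control cultures 1, 2 and 3. The groups overlapped, since CNT 1 stood above the rest while CNT 3 lay level with control 3. The ratio of CNT to control was 1.86-fold (0.89 ± 0.60 on the log2 scale, SE), and the 95% interval of limma runs from 0.669-fold to 5.15-fold. Without CNT 3 the log2 fold change was 1.503 (adjusted p = 0.7505 from limma), and without CNT 1 it was 0.27 (adjusted p = 1.00 from limma).

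Mobp (chr8:128747117-128777238) encodes a basic protein of compact myelin. Its leading probe set gave 13.18, 13.02 and 11.72 in CNT cultures against 12.60, 12.69 and 11.77 in control cultures. CNT 1 and CNT 2 were the highest arrays and CNT 3 the lowest of the 6, so that the groups overlapped. The fold was 1.22, with a 95% interval of 0.573-fold to 2.62-fold. Its other probe sets had the same order of arrays and a wider range, with folds of 1.28 and 1.39.

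Mbp (chr18:78130652-78241174), myelin basic protein, holds the inner faces of the myelin membrane together. Its leading probe set gave 14.72, 14.47 and 14.22 in CNT cultures against 14.40, 14.56 and 14.34 in control cultures. All 6 values lay within 0.50 log2 of each other, and the fold was 1.03 with a 95% interval of 0.794-fold to 1.33-fold. Cldn11 (chr2:114136234-114149539), the claudin of the tight junctions between the turns of myelin, gave 14.08, 14.03 and 13.77 in CNT cultures against 13.96, 14.06 and 13.87 in control cultures. Its fold was 0.995, with a 95% interval of 0.81-fold to 1.22-fold. These are the narrowest intervals of the 9 genes, and both probe sets lie near the top of the scale, where the highest value of any probe set was 14.71 to 14.85 on each array. The part of this upper limit in their narrow spread was not tested.

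Of the proteins at the surface of the sheath, Mag (chr1:95275728-95291133) is the adhesion molecule that faces the axon. It gave 12.93, 12.81 and 11.64 in CNT cultures against 12.38, 12.90 and 11.99 in control cultures, a fold of 1.03 with a 95% interval of 0.518-fold to 2.03-fold. Mog (chr20:1514110-1528716) lies on the outermost layer of the sheath and appears late in maturation. It gave 11.73, 10.83 and 9.24 in CNT cultures against 10.06, 10.85 and 9.48 in control cultures. The SD of 1.26 in CNT cultures (n = 3) was the largest among the leading probe sets, against 0.689 in control cultures, and the fold of 1.38 had a 95% interval of 0.444-fold to 4.32-fold. For both genes CNT 1 was the highest array and CNT 3 the lowest.

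Ugt8 (chr2:216938884-217007167) encodes the enzyme that adds galactose to ceramide, the step that makes the main glycolipid of myelin. Its leading probe set gave 12.51, 11.50 and 10.93 in CNT cultures against 11.04, 12.66 and 11.79 in control cultures. Ugt8 was the only one of the 9 genes whose leading probe set did not have control 3 as the lowest control array. Its 3 lowest arrays were CNT 3, control 1 and CNT 2, those with the largest beta-actin difference. The fold was 0.88, with a 95% interval of 0.356-fold to 2.18-fold. Its other probe set gave 3.63 to 3.72 in CNT cultures and 3.69 to 3.74 in control cultures, where the lowest value of any probe set was 3.38 to 3.46 on each array, so this probe set carries little signal.

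The pair of transcription factors had folds close to 1. Olig1 (chr11:44000450-44002592), a basic helix-loop-helix factor needed for precursors to mature, gave 13.40, 13.17 and 11.76 in CNT cultures against 12.87, 13.47 and 12.27 in control cultures. Its fold was 0.938, with a 95% interval of 0.3995-fold to 2.20-fold. Sox10 (chr7:112605721-112615097), which drives myelin genes in oligodendrocytes and in Schwann cells, gave 12.02, 12.03 and 10.86 in CNT cultures against 11.72, 12.06 and 10.93 in control cultures. Its fold was 1.05, with a 95% interval of 0.516-fold to 2.14-fold. In both genes the cultures numbered 3 were the lowest arrays on each substrate.

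**Figure D2:**
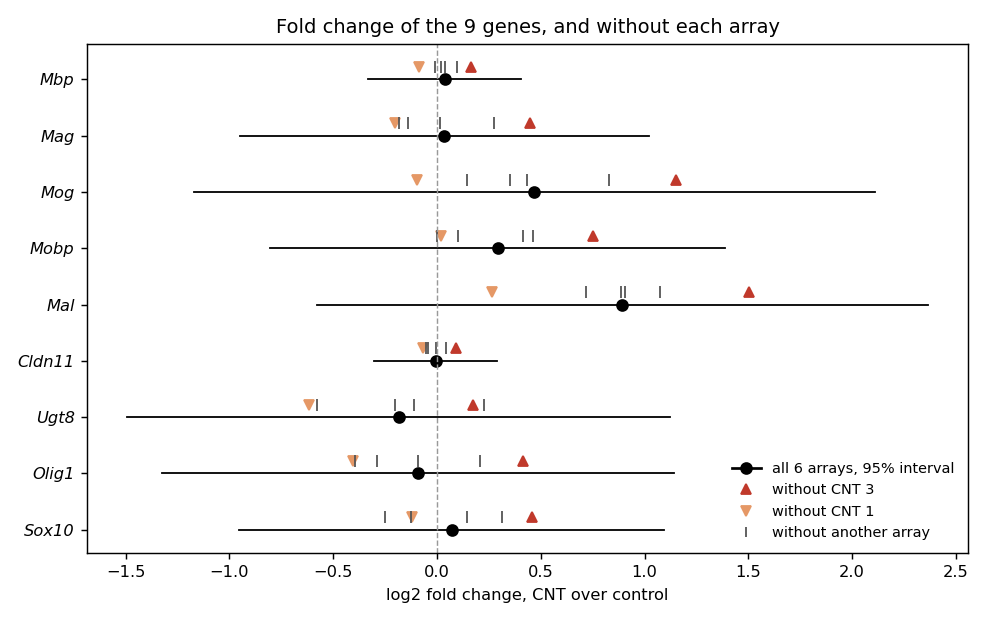
Log2 fold change of the leading probe set of each gene, CNT over control, with its 95% interval from limma (black, 3 arrays against 3), and above it the values without each array in turn. The value without CNT 3 (red) lies to the right of that with all arrays, and the value without CNT 1 (orange) to its left, for each of the 9 genes.

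What the leading probe sets of the 9 genes largely shared was their order over the arrays, and this order ran across the substrates. CNT 3 was the lowest CNT array for 9 of 9 leading probe sets, against 45.8% of all genes, and control 3 the lowest control array for 8 of 9, against 41.7% of all genes. Both held for 8 of the 9, all but Ugt8, and for 28.1% of all genes. Over all 15 probe sets, CNT 3 was the lowest CNT array in 15 and both held in 10. Both did not hold in the other probe sets of Mbp and Cldn11, where control 1 was the lowest control array. At the other end, control 2 was the highest control array for 9 of 9 and CNT 1 the highest CNT array for 8 of 9, all but Sox10, against 34.9% and 30.8% of all genes. The leading probe sets of Mbp, Mag, Mog and Cldn11 had the very same order, which from high to low was CNT 1, control 2, CNT 2, control 1, control 3 and CNT 3. Those of Mbp and Cldn11 had it within 0.50 and 0.31 log2, near the top of the scale. Taken relative to each gene's mean, the median of the 9 genes was 0.58, 0.37 and -0.78 log2 on CNT arrays 1, 2 and 3, and -0.05, 0.45 and -0.56 on control arrays 1, 2 and 3. For each of the 9 genes the residual SD within groups exceeded the difference between substrates.

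That spread was wide for genes of this array. The residual SD within groups was above 0.5 log2 for 7 of the 9 genes, all but Mbp and Cldn11, and for 9.98% of all genes, with a median of 0.672 over the 9 and of 0.193 over all genes. Leaving out CNT 3, the lowest of the CNT arrays, gave a log2 fold change of 1.15 for Mog, 0.75 for Mobp and 0.45 for Mag. Leaving out CNT 1 gave -0.10 for Mog, 0.02 for Mobp and -0.20 for Mag. The median over the 9 genes was 0.45 without CNT 3 and -0.10 without CNT 1, and the direction for each gene but Mal turned without 1 array or another.

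The genes outside all lists whose profile came closest to the median profile of the 9 were Tst, Tyro3, Scrg1, Arhgef37, Fam53b and Tmem151a. They were picked from 1003 genes of at least the same SD, by the root mean square difference from that profile over 6 arrays, which was 0.054 log2 for Tst and 0.111 for Tmem151a. Tst, the sulfurtransferase rhodanese, gave 11.85, 11.62 and 10.49 in CNT cultures against 11.10, 11.76 and 10.76 in control cultures. Tyro3, a receptor tyrosine kinase, gave 11.40, 10.98 and 9.93 in CNT cultures against 10.58, 11.22 and 10.16 in control cultures. None of these 6 passed limma's test (adjusted p = 0.999 each), where 0% of all 14217 genes did. Their pick by a profile with little difference between substrates made a call unlikely, so this adds no evidence.

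Probe sets of the same gene gave different pictures for Mbp and Cldn11, but not for Mobp, whose 3 probe sets ranked the arrays alike. They are counted here by their mean level, the leading one first. The second probe set of Mbp gave 13.25, 11.95 and 11.41 in CNT cultures against 11.53, 13.55 and 12.79 in control cultures, a fold of 0.749 where the leading probe set had 1.03. The second probe set of Cldn11 gave 12.23, 10.08 and 9.58 in CNT cultures against 10.09, 12.62 and 10.88 in control cultures, a fold of 0.673 where the leading probe set had 0.995. In each the low arrays were CNT 2, CNT 3 and control 1, which are also the arrays of largest beta-actin difference. The leading probe set of Mbp exceeded the second by 1.48, 2.52 and 2.80 log2 on CNT arrays 1, 2 and 3, and by 2.87, 1.01 and 1.56 on control arrays 1, 2 and 3. For Cldn11 the gap was 1.84, 3.95 and 4.19 on the CNT arrays, and 3.87, 1.44 and 2.98 on the control arrays. The part of RNA quality in these gaps was not tested, and where the probe sets lie along the transcripts was not analysed here.

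The third probe set of Mbp ranked the arrays as the second did, with 11.63, 11.50 and 10.07 in CNT cultures against 11.41, 11.83 and 11.58 in control cultures. Here CNT 3 alone lay far from the rest, and the fold was 0.688. None of the probe sets passed when each of 20826 was tested by itself (adjusted p = 0.999 from limma for each of the 15), against a background of 0%. Without the arrays control 1 and CNT 2 the log2 fold change was -0.84 for the second probe set of Mbp, -0.85 for its dimmest and -0.85 for the second of Cldn11, against -0.42, -0.54 and -0.57 with all arrays. For the leading probe set of Ugt8 it was -0.51, against -0.18 with all arrays. The leading probe sets of Mbp and Cldn11 gave 0.02 and -0.04 without these arrays, and Mal gave 0.90. None passed limma's test in this setting. CNT 3, at a beta-actin difference of 1.72, stayed in it with CNT 1 at 0.92, against 0.62 and 0.66 on control 2 and control 3. RNA quality was thus not made equal between the groups.

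**Figure D3:**
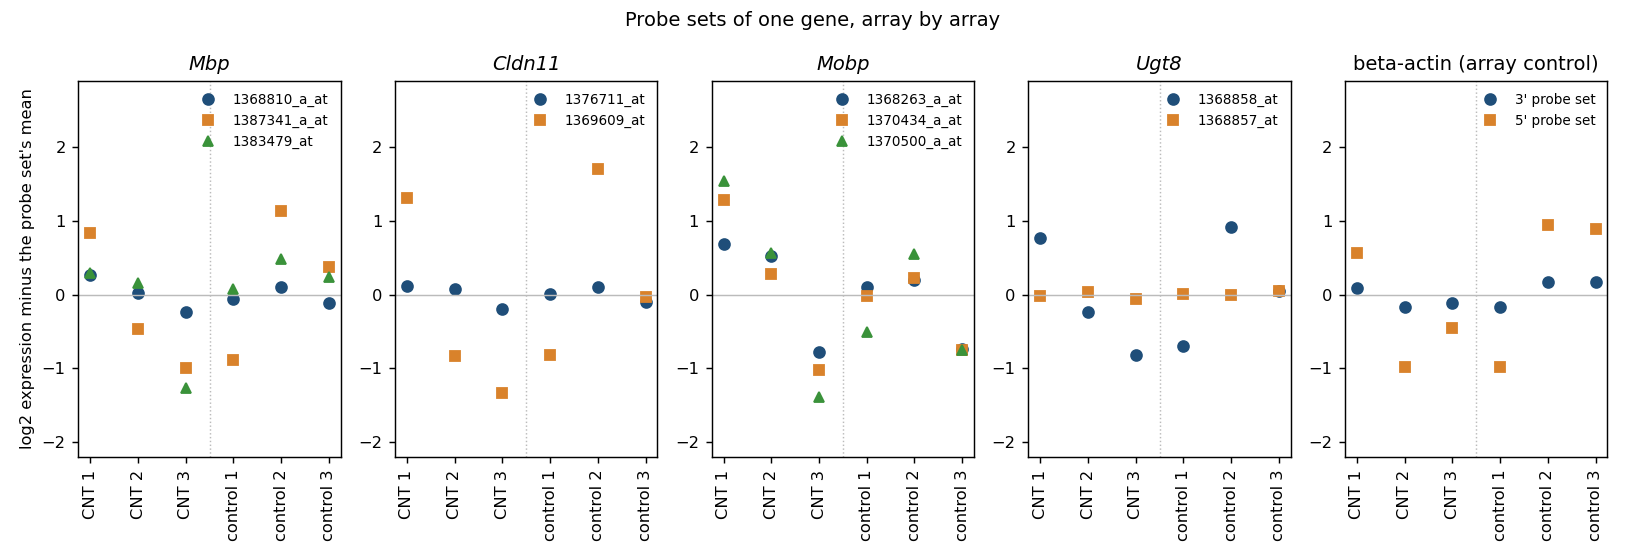
Log2 expression of every probe set of Mbp, Cldn11, Mobp and Ugt8 on each array, minus that probe set's mean over the 6 arrays, beside the 3′ and 5′ control probe sets of beta-actin. The second probe sets of Mbp and Cldn11 and the leading one of Ugt8 are low on CNT 2, CNT 3 and control 1, as is the 5′ probe set of beta-actin.

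The other genes of the lineage were taken from 6 lists by role, with 73 of 86 genes measured, and none passed limma's test in either direction. Their log2 fold changes were positive in 37 and negative in 36, with a median of 0.01. The groups did not overlap in 4 of the 73 (5.48%), with Elovl1, Hes5 and Car2 higher and Cadm4 lower in CNT cultures, where 7.99% of all genes had such groups. Both CNT 3 and control 3 were the lowest arrays of their group in 38 of them (52.1%), where 28.1% of all genes had this. The share was 10 of 19 for other structural genes of myelin, 6 of 9 for lipid genes, 7 of 13 for transcription factors and 7 of 10 for precursor and premyelinating genes. It was 7 of 15 for receptors and signals, and 1 of 7 for iron and metabolism genes.

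Among the structural genes, Cnp, the phosphodiesterase of myelin, gave 14.09, 14.17 and 13.42 in CNT cultures against 13.97, 14.15 and 13.68 in control cultures. Opalin, a glycoprotein of late oligodendrocytes, had the highest fold change of this list (0.72 ± 0.47, SE) and gave 7.601, 6.99 and 6.12 in CNT cultures against 5.92, 6.92 and 5.70 in control cultures. Like Mal and Mog it was highest on CNT 1, and the groups overlapped. All values of Opalin lie below the array medians of 8.18 to 8.25. In the lipid list, Elovl1, an elongase of very long fatty acids, gave 12.64, 12.69 and 12.48 in CNT cultures against 12.38, 12.37 and 12.33 in control cultures. Its groups did not overlap (log2 fold change 0.24 ± 0.10, SE), and it did not pass the test. Cadm4, an adhesion molecule of myelinating glia in the structural list, was barely separated the other way, with 6.27, 6.33 and 6.17 in CNT cultures against 6.33, 6.36 and 6.53 in control cultures (-0.15 ± 0.10). Its nearest arrays, CNT 2 and control 1, were at 6.3299 and 6.3329, and its values lie below the array medians of 8.18 to 8.25. Gal3st1, which adds sulfate to the galactolipid that Ugt8 makes, had 0.21 ± 0.35.

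Bmp4, a secreted factor found in premyelinating cells that holds back maturation, had the lowest fold change of the precursor list. It gave 10.70, 10.48 and 10.16 in CNT cultures against 11.68, 11.37 and 10.65 in control cultures, which is -0.78 ± 0.29 on the log2 scale (SE) with an adjusted p of 0.999 from limma. The groups overlapped only in CNT 1 and control 3. Enpp6, a mark of newly formed oligodendrocytes, had -0.28 ± 0.33, and Cspg4, the NG2 proteoglycan of precursors, had 0.22 ± 0.27. Pdgfra, the growth factor receptor of precursors that fibroblasts also carry, gave 12.91, 12.98 and 13.60 in CNT cultures against 13.22, 13.11 and 12.92 in control cultures. Unlike the 9 genes it was highest on CNT 3.

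Of the transcription factors, Id2, an inhibitor of differentiation, had a log2 difference of 0.41 ± 0.28 (SE) and Tcf7l2, a Wnt effector of newly formed oligodendrocytes, of -0.13 ± 0.15. Car2, the carbonic anhydrase of oligodendrocytes and other cells, gave 9.65, 10.16 and 10.33 in CNT cultures against 9.22, 9.45 and 9.23 in control cultures. Its groups did not overlap and its order differed from that of the 9 genes, since CNT 3 was highest (0.74 ± 0.19 on the log2 scale, with an adjusted p of 0.999 from limma). Il33, a cytokine gene of the same list, which astrocytes also express in the mouse, had the larger difference and the opposite sign, with 9.53, 9.59 and 10.04 in CNT cultures against 10.95, 10.89 and 9.78 in control cultures (-0.82 ± 0.34, SE), and its groups overlapped. Among signals, Igf1, a growth factor for oligodendrocytes that microglia make, had 0.36 ± 0.24, and among 11 axonal partners of myelin the paranodal and nodal gene Nfasc had -0.23 ± 0.50.

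Schwann cells also express Mbp, Mag, Mal and Sox10, and 8 of 11 Schwann cell markers were measured. Their mean deviation was 0.06, -0.13 and 0.16 log2 on CNT arrays 1, 2 and 3, and -0.15, -0.05 and 0.12 on control arrays 1, 2 and 3, against 0.71, 0.27 and -0.73 and -0.15, 0.36 and -0.47 for the 9 genes on the same arrays. The mean of the Schwann cell list was thus highest on the arrays numbered 3, where the 9 genes were lowest, but its genes differed. Egr2, a driver of Schwann cell myelination, gave 10.74, 10.84 and 11.67 in CNT cultures against 9.71, 9.92 and 11.49 in control cultures (log2 difference 0.71 ± 0.52, SE). Ngfr, the low-affinity neurotrophin receptor, named after its values were seen, was 10.27 on CNT 3 and 7.55 to 9.53 on the other arrays. Pou3f1, a transcription factor of promyelinating Schwann cells, was lowest on both arrays numbered 3, with 8.36, 8.38 and 6.94 in CNT cultures against 7.64, 7.92 and 7.39 in control cultures. In all, CNT 3 was the lowest CNT array in 3 of the 8 markers, and both arrays numbered 3 were lowest in 2. Pmp22, a myelin protein of peripheral nerve that other cells share, gave 12.94, 13.05 and 13.26 in CNT cultures against 13.06, 12.61 and 13.40 in control cultures.

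Low values on the arrays numbered 3 were not limited to oligodendrocyte genes. The astrocyte list, 8 of 8 measured, deviated by 0.04, 0.11 and -0.35 log2 on CNT arrays 1, 2 and 3, and by 0.17, 0.18 and -0.16 on control arrays 1, 2 and 3, and both arrays numbered 3 were the lowest of their group in 6 of its 8 genes. In the microglia and macrophage list CNT 3 was the lowest CNT array in 8 of 8 genes, against 45.8% of all genes. Both arrays numbered 3 were lowest in only 2 of the 8, where 28.1% of all genes had this. The mean deviation of this list on control 3 was 0.04. The mean of the neuron list, 8 of 8 measured, was highest on the arrays numbered 3, at 0.14 on CNT 3 and 0.28 on control 3, with its genes divided. Snap25, a synaptic vesicle fusion protein named after its values were seen, was 10.53 on CNT 3 and 10.62 on control 3 and lay between 8.31 and 9.06 on the other arrays, while CNT 3 was the lowest CNT array in 4 of the 8 neuron genes, Map2, Tubb3, Nefm and Syt1. The fibroblast and meningeal list ranged from -1.23 on CNT 2 to 0.74 on control 1 and the microglia and macrophage list from -0.62 on control 1 to 0.44 on CNT 2. The endothelial list, 5 of 6 measured, stayed between -0.17 on control 2 and 0.18 on CNT 2. None of the genes of these lists passed limma's test, and their part in the order of the 9 genes was not tested. As a check for astrocytes and neurons, the brightest gene of each list was read. The astrocyte filament gene Gfap gave 13.70 to 14.38 in CNT cultures and 13.87 to 14.34 in control cultures. The neuronal gene Map2 gave 11.01 to 11.63 in CNT cultures and 11.49 to 11.64 in control cultures. Named after their values were seen, the neuron genes Syt1, Rbfox3 and Nefl averaged 6.05, 7.19 and 7.38, and the astrocyte gene Slc1a2 7.99. These lie below the array medians of 8.18 to 8.25, and the other genes of both lists averaged above them. Such markers of cell types do not test for spinal cord.

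**Figure D4:**
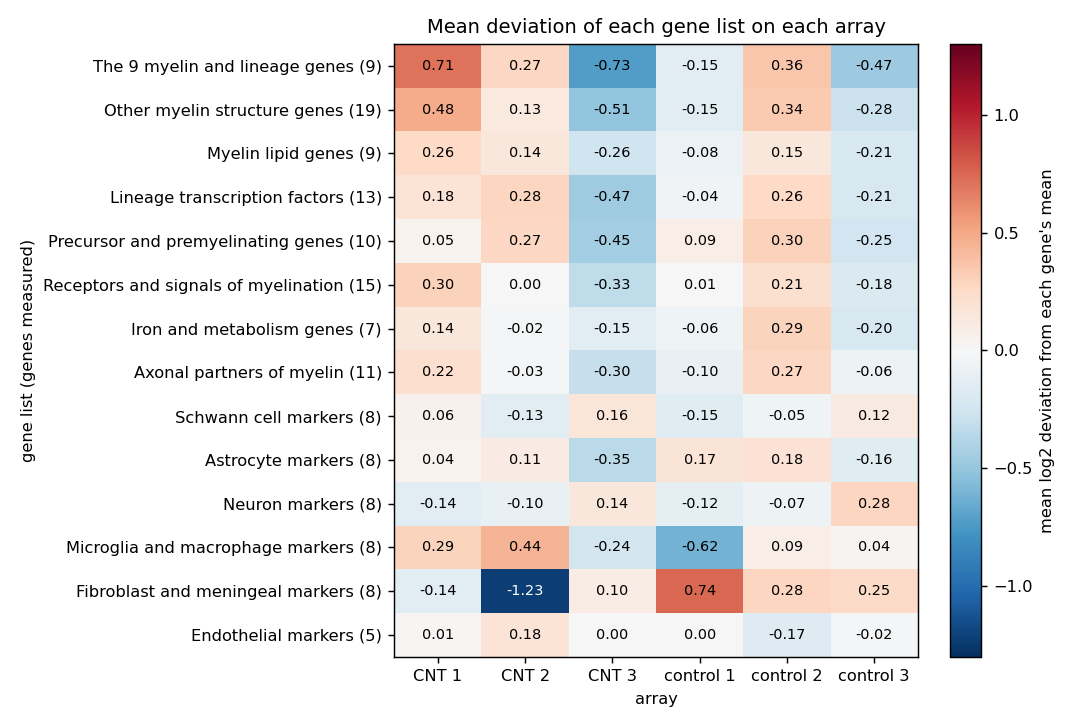
Mean log2 deviation of each gene list on each array, relative to each gene's mean over the 6 arrays, with the number of genes measured in brackets. The lists of the oligodendrocyte lineage and of astrocytes are low (blue) on CNT 3 and control 3, where the means of the Schwann cell and neuron lists are above 0.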

How the data were processed

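Gene expression was measured in 3 CNT and 3 control cultures, with 1 array and 100 ng of total RNA each. The deposited values are log2 expression that the authors computed by RMA for the manufacturer's probe sets; the RMA version is not given in the sources used here. The study's own analysis used EntrezGene custom files and the rank product. The values were not normalized again.

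The array has 31099 probe sets. Those annotated to exactly 1 gene (20826) were tested, and 436 with more than 1 gene, 9780 without a gene and 57 controls were left out. For each of 14217 genes the brightest probe set on average was used. CNT and control cultures were compared across all genes in R 4.3.3 by limma 3.58.1 (lmFit, then eBayes), and p-values were adjusted after Benjamini and Hochberg with a threshold of 0.05. limma took the place of the rank product as the main test, because the rank product draws its chance level from genes. The rank product was run over the 9 pairs of arrays with 2000 permutations of genes within arrays, at a percentage of false positives of 0.05 and a 2-fold difference. Both were tested on simulated data. Figures were drawn with Python 3.11.15.

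The 9 genes and the gene lists were chosen with earlier results of these data known. Genes of the other lists could be named where they were among the 3 lowest p-values of their list or had its highest mean. Alternatives were fits on quantile-normalized values, after dropping the 30% of genes with the dimmest signal, on probe sets averaged per gene or taken singly, with a block for the replicate number, with a trend and robust eBayes, with median centring, without each array, and without control 1 and CNT 2. The labels and the study's methods name different rat strains and RNA kits. Gene names and promoter windows come from the array annotation and from RefSeq (GRCr8). The number of arrays limits the precision.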

Additional observations from a re-analysis of the deposited data

How the results depend on the processing

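None of the 9 genes passed under any of the 14 alternative fits with limma, in which their adjusted p ran from 0.7505 to 1.00. The rank product called 57 of all genes higher and 5 lower where limma called none. It could not call any of the 9, since none reached its 2-fold cut. The fit with the replicate block called 0 genes, with 677 at an unadjusted p under 0.05 where 443 had it without the block. The deviations of arrays with the same number correlated over all genes at -0.13, 0.36 and 0.51, positive for numbers 2 and 3 but not for 1. The main fit therefore did not take the arrays as pairs. The paper describes 3 culture series, without saying which arrays share one. With the block the SE was lower for each of the 9 genes but Ugt8, where it went from 0.54 to 0.57. It went from 0.42 to 0.12 for Sox10, 0.45 to 0.16 for Mobp, 0.40 to 0.20 for Mag and 0.51 to 0.23 for Olig1. The interval of each of the 9 genes still held 0 with the block. It ran from -0.26 to 0.40 log2 for Sox10 and from -0.13 to 0.71 for Mobp. CNT 2 and CNT 3 were each most like the control array of their own number, and CNT 1 was most like control 2. Without each array in turn, 0 to 2 genes were called higher, 2 of them without control 3, and 0 lower, 0 of the 9 genes were called, and their median log2 fold change ran from -0.10 to 0.45. The direction turned under at least 1 alternative for 8 of the 9 genes, all but Mal, and not only for those with a fold near 1. Mbp was at -0.31 with the mean of its probe sets, Mag at -0.0014 and Mbp at -0.00012 with median centring, and Mag at -0.16 and Sox10 at -0.052 without the arrays control 1 and CNT 2. Without each array in turn the log2 fold change ran from -0.088 to 0.16 for Mbp, -0.20 to 0.45 for Mag, -0.10 to 1.15 for Mog, -0.00091 to 0.75 for Mobp, 0.27 to 1.503 for Mal, -0.065 to 0.0896 for Cldn11, -0.62 to 0.23 for Ugt8, -0.40 to 0.42 for Olig1 and -0.25 to 0.46 for Sox10. For the other probe sets it ran from -0.96 to 0.047 and -0.82 to -0.04 for Mbp, -0.19 to 0.96 and -0.18 to 1.29 for Mobp, -1.37 to 0.14 for Cldn11 and -0.06 to -0.01 for Ugt8. The cause was not tested. With 3 arrays a group and without the block, intervals were wide for all but Mbp and Cldn11, whose values lie near the top of the scale.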
